A study of Saccharomyces cerevisiae with 11 samples.

Results

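The genes described here encode the 8 subunits of CCT (also called TRiC), the chaperonin of the eukaryotic cytosol. They were taken from the 6834 listed features of budding yeast (Saccharomyces cerevisiae) by their systematic names: TCP1 (YDR212W), CCT2 (YIL142W), CCT3 (YJL014W), CCT4 (YDL143W), CCT5 (YJR064W), CCT6 (YDR188W), CCT7 (YJL111W) and CCT8 (YJL008C). All 8 were counted in all 11 libraries, with 32 to 671 counts per gene and library, and all 8 were among the 5456 features with enough counts to be tested.

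The study asked which features of the intrinsically disordered region IDR2 allow Abf1, an essential DNA-binding general regulatory factor, to work. All cells were 1 clone (A9) of a strain for anchoring away Abf1, named ABF1-aa-V5, in which the chromosomal Abf1 carries an FRB tag and the ribosomal protein Rpl13A carries FKBP12, so that rapamycin draws the tagged Abf1 out of the nucleus. All libraries came from cells grown without leucine and given rapamycin at 8 µg/ml, so there is no untreated group. The groups differed in the pRS315 plasmid (LEU2): wild-type Abf1 (2 libraries), no Abf1 (the empty plasmid, 3 libraries), EM shuffle (an inviable variant with its essential motif shuffled, 2 libraries), LS-15 (a viable variant, 2 libraries) and NCS-506 (a viable variant, 2 libraries). LS-15 and NCS-506 both support only slow growth, and the 3 variants lack the other disordered region, IDR1, whereas wild-type Abf1 was full length. Rapamycin acted for 75 min in every library but wild-type Abf1 replicate 1, which was given 60 min and belonged to an earlier batch, so time and batch cannot be told apart within that group. The methods describe replicates as independent transformed clones of this 1 strain.

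Total counts ranged from 920044 (LS-15 replicate 1) to 2195476 (NCS-506 replicate 1), with a median of 1422833. The strain is labelled BY4741, which is a MATa strain, but the a-cell genes MFA1, MFA2, STE2 and BAR1 had 0 to 23 counts per library, and the alpha-cell genes MF(ALPHA)1 and STE3 had 177 to 1209 counts. The ABF1 transcript was present in every library at 188 to 405 CPM (counts scaled to library size), and it does not test the depletion, which acts on the protein. Levels are given as CPM, read counts over the TMM-scaled library size in units of 1e6, and per kilobase of coding sequence where genes are compared with each other. These are shares of bulk RNA, so a change in RNA per cell and a change in the make-up of the culture cannot be told apart. Changes are log2 fold changes with their standard error (SE) from edgeR's quasi-likelihood fit over all 11 libraries, two-sided, and "called" means a Benjamini-Hochberg adjusted p under 0.05 over all 5456 features. All groups share 1 estimate of the spread in this fit, although their replicates were not equally alike. Difference between replicates relative to counting noise (chi-square per degree of freedom) was 21.7 in wild-type Abf1 and 24.3 in EM shuffle. It was 6.11 in LS-15, 6.45 in NCS-506 and 1.25 to 2.06 in no Abf1.

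CCT folds proteins inside a closed chamber made of a pair of stacked rings, each built from 1 copy of every subunit, and its best known clients are actin and the tubulins. Every subunit gene is essential in yeast. Around the ring TCP1, CCT4, CCT2 and CCT5 form the side with high affinity for ATP, and CCT3, CCT6, CCT8 and CCT7 the side with low affinity. Because 1 of each subunit enters a ring, the complex needs all 8 in equal numbers.

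The subunit genes lie on 3 chromosomes and each is a single coding exon of 1584 to 1707 bp. In RefSeq's annotation of the R64 assembly (the same chromosome sequences as sacCer3), TCP1 is at chrIV:887232-888911, CCT4 at chrIV:199996-201582 and CCT6 at chrIV:836421-838061, all on the plus strand. CCT2 is at chrIX:83302-84885 on the plus strand. CCT3 (chrX:407558-409162), CCT5 (chrX:555914-557602) and CCT7 (chrX:207877-209529) are on the plus strand of chromosome X, and CCT8 (chrX:419957-421663) is on its minus strand. No other RefSeq gene overlaps any of them.

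A match to the Abf1 consensus, a pair of short conserved blocks 5 bases apart, stood within 400 bp upstream of the start codon in 7 of the 8 genes, against 16.06% of 5866 protein-coding genes. TCP1 was the gene without one. The matches are shown because every gene called in the comparison of no Abf1 with wild-type Abf1 carries one. Each is written 5′ to 3′ on the strand that holds the consensus, with these blocks in capitals and 8 flanking bases on each side, from the R64 sequence in RefSeq.
CCT2: aatttcagATCGTtagaaACGaggttttt
CCT3: caccatgcGTCACgttaaACGaaaaagtt
CCT4: gtattactATCACttgccACGgggaaact
CCT5: tggcataaATCACtttacACGttctcgag
CCT6: ggccgtggATCACtgtttACGggagtttt
CCT7: aaatattaATCATtattcACGaaagtttt
CCT8: gtgtttttGTCATtattaACGgtattcga

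These matches, flanks not counted, are at chrIX:83164-83176 for CCT2, chrX:407410-407422 for CCT3, chrIV:199834-199846 for CCT4, chrX:555754-555766 for CCT5, chrIV:836220-836232 for CCT6, chrX:207698-207710 for CCT7 and chrX:421799-421811 for CCT8. They lie 125 (CCT2), 135 (CCT3 and CCT8), 147 (CCT5), 149 (CCT4), 166 (CCT7) and 188 (CCT6) bases from the start codon. CCT2 had a further match 257 bases away. The same 7 genes had a match within 250 bp, where 11.83% of protein-coding genes have one. A heat shock element core (TTCNNGAA, either strand) was found within 400 bp of CCT7 and CCT8, against 17.51% of protein-coding genes, and in CCT7 it overlaps the Abf1 match. The core of the site for Reb1 (TTACCC, either strand), another general regulatory factor, was found for CCT4 and CCT7, against 20.61%. A match is a run of letters and was not tested for binding.

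With wild-type Abf1 the subunit genes stood at similar levels. CCT6 was highest at 191 ± 16.6 CPM per kb (SD, n = 2), followed by TCP1 at 163 ± 6.74, CCT4 at 159 ± 9.72, CCT5 at 145 ± 5.38, CCT8 at 142 ± 4.29, CCT7 at 138 ± 12.4, CCT2 at 137 ± 23 and CCT3 at 137 ± 26.9. The highest gene stood 1.53 times above the lowest in wild-type Abf1 replicate 1 and 1.46 times in replicate 2. In this order CCT6 stood above TCP1 and CCT4 above CCT5 in both libraries, and the other neighbours overlapped.

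Without Abf1 the subunit genes were far less alike, since some fell, by unequal amounts, and others were not called. Of the 8 genes, 5 were called lower than with wild-type Abf1 (CCT5, CCT8, CCT4, CCT2 and CCT3), where 13.7% of all tested features were called lower. The other 3, CCT7, CCT6 and TCP1, were not called, and none was called higher. The median log2 fold change of the 8 was −0.78, beside 0.015 over all 5456 features. In 6 of the 8 genes every no Abf1 library lay below both wild-type libraries, which held for 28% of features.

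CCT5, a subunit of the high-affinity side, fell most. Its level was 239 and 252 CPM with wild-type Abf1 and 51.1, 54.3 and 45.2 CPM without Abf1, so that all 3 depleted libraries stood far below both controls. The log2 fold change was −2.29 ± 0.325 (SE, edgeR adjusted p = 0.00118), which is 4.88-fold lower. Only 1.32% of all tested features had a lower fold change.

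CCT8, of the low-affinity side, followed. It had 248 and 238 CPM with wild-type Abf1 and 89.2, 89 and 97.7 CPM without Abf1, with no overlap. The log2 fold change was −1.40 ± 0.193 (edgeR adjusted p = 0.00106), 2.64-fold lower.

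CCT4, again of the high-affinity side, had 263 and 241 CPM with wild-type Abf1. In the no Abf1 libraries it had 103, 107 and 103 CPM, a narrow group well under the controls. It was 2.41-fold lower (log2 fold change −1.27 ± 0.222, edgeR adjusted p = 0.00256).

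CCT2, the neighbour of CCT4 and CCT5 in the ring, had 191 and 243 CPM with wild-type Abf1 and 123, 122 and 88.4 CPM without Abf1. The groups did not overlap, but replicates spread more widely here than for CCT8 or CCT5. The log2 fold change was −0.97 ± 0.211 (edgeR adjusted p = 0.00794), 1.95-fold lower.

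CCT3 showed the smallest called change. It had 189 and 250 CPM with wild-type Abf1 and 146, 132 and 160 CPM without Abf1, so that the lower control stood not far above the highest depleted library. The log2 fold change was −0.59 ± 0.162 (edgeR adjusted p = 0.0221), 1.5-fold lower.

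CCT7 had 213 and 242 CPM with wild-type Abf1 and 191, 179 and 168 CPM without Abf1. Its groups did not overlap, yet its log2 fold change of −0.35 ± 0.155 was not called (edgeR adjusted p = 0.126). CCT6 had 295 and 333 CPM with wild-type Abf1 and 291, 288 and 327 CPM without Abf1. These values overlapped, with a log2 fold change of −0.06 ± 0.181 (edgeR adjusted p = 0.857). TCP1, the first subunit of the complex to be described, had 266 and 282 CPM with wild-type Abf1 and 278, 285 and 297 CPM without Abf1, a log2 fold change of 0.06 ± 0.146 (edgeR adjusted p = 0.79), and its groups overlapped as well.

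**Figure D1:**
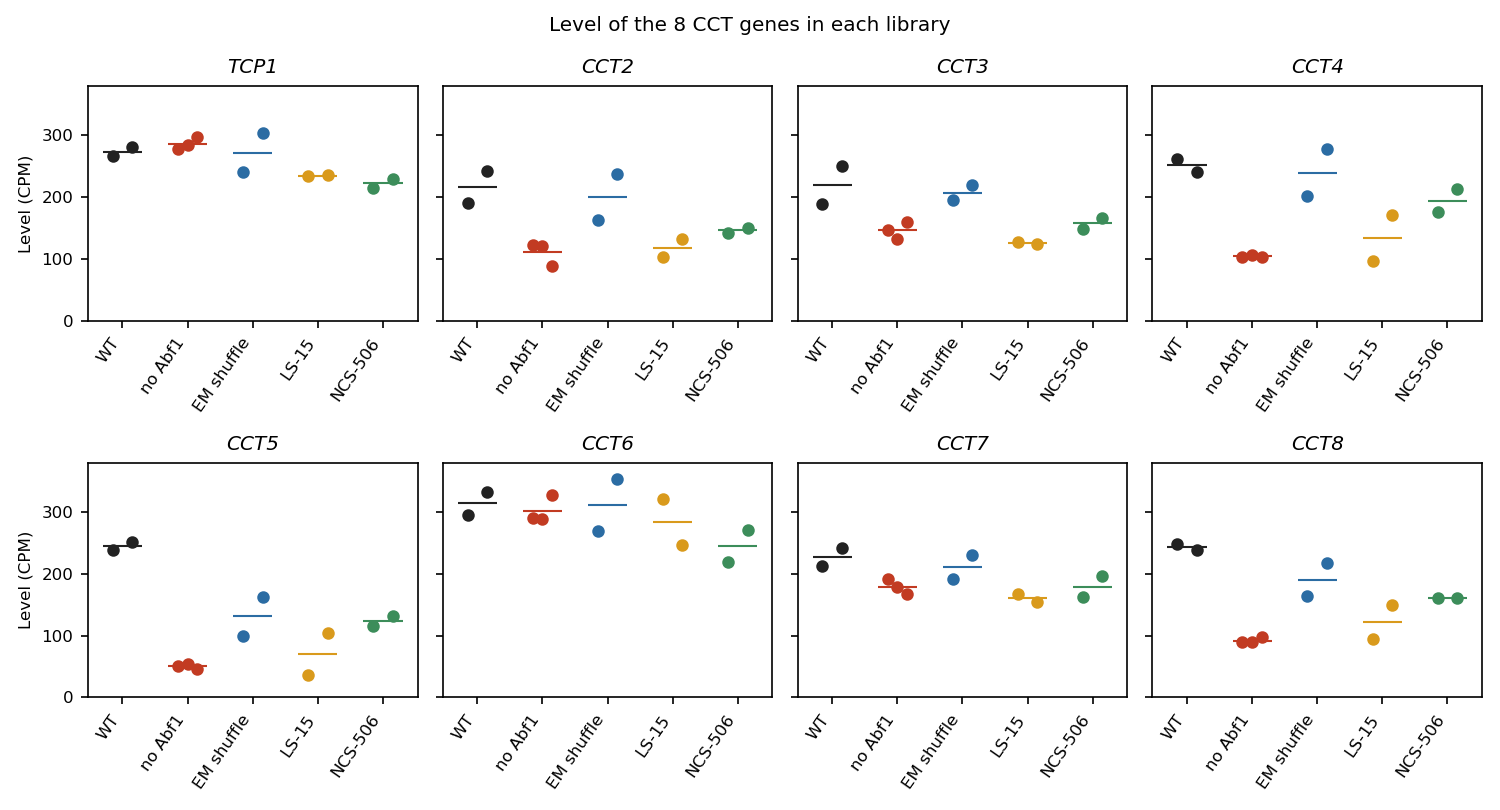
Level in CPM (scaled by TMM, linear axis from 0) of each CCT gene in each of the 11 libraries; points are libraries and lines are group means. The no Abf1 libraries of CCT5 sit between 45.2 and 54.3 CPM against 239 and 252 CPM with wild-type Abf1, whereas those of TCP1 and CCT6 overlap the wild-type libraries.

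Both sides of the ring held called genes, 3 of 4 on the high-affinity side and 2 of 4 on the low-affinity side. The calls of CCT5, CCT8 and CCT4 held when any single library was left out. Without wild-type Abf1 replicate 2 the count fell to 3, with CCT2 at edgeR adjusted p = 0.08 and CCT3 at 0.241, and the call of CCT3 was also lost without no Abf1 replicate 1 (0.0607) or replicate 2 (0.0928). Fewer of all features were called without those libraries as well. On log2-transformed TPM values limma called only CCT5 and CCT8. Beside them, 163 (log2(TPM + 1)) and 199 (log2(TPM + 0.1)) of 5456 features were called lower, against 746 by edgeR.

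Both of the uncalled genes with a match, CCT7 and CCT6, had it farther from the start codon than the 5 called genes did, a pattern seen only after the values were known. Among protein-coding genes in general, 45.3% of the 905 tested genes with a match within 400 bp were called lower without Abf1, and their median log2 fold change was −0.60. Of the 4404 tested genes without a match, 7.45% were called lower, with a median of 0.09. The subunit genes with a match ranged from CCT5 at −2.29 to CCT6 at −0.06 on that scale, and TCP1, without one, was at 0.06.

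**Figure D2:**
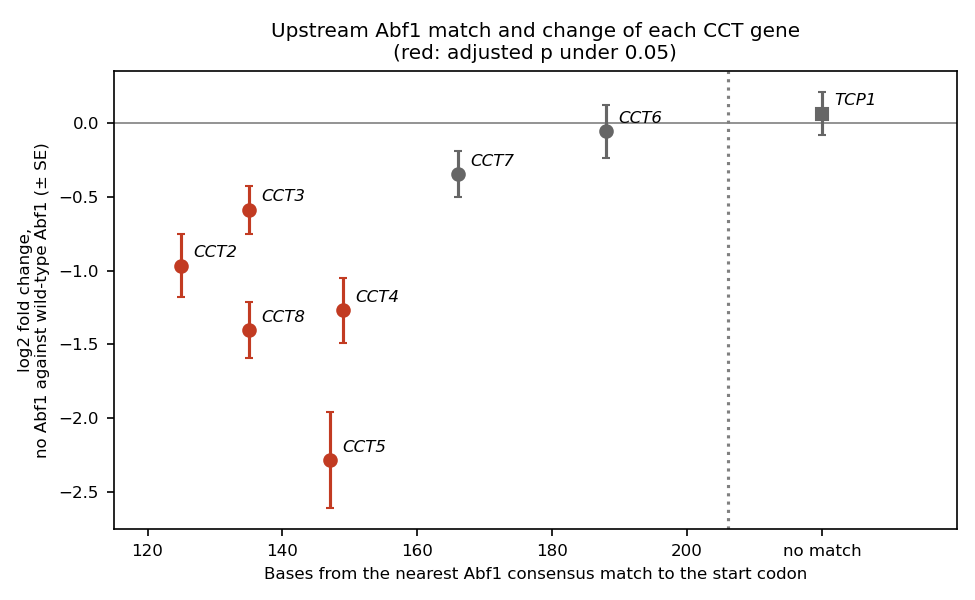
Log2 fold change (± SE) of each CCT gene in no Abf1 against wild-type Abf1, plotted against the distance in bases from its nearest Abf1 consensus match to the start codon; TCP1 had no match and is set apart on the right. The 5 called genes, in red, have matches 125 to 149 bases away, and the uncalled CCT7 and CCT6 have theirs at 166 and 188 bases.

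In CPM per kb the order of the subunit genes without Abf1 was CCT6 (184 ± 13.1, SD, n = 3), TCP1 (171 ± 5.84), CCT7 (108 ± 7.24), CCT3 (91.1 ± 8.82), CCT2 (70.2 ± 12.4), CCT4 (65.7 ± 1.37), CCT8 (53.9 ± 2.9) and CCT5 (29.7 ± 2.73). CCT6 stood above TCP1 in each of the 3 libraries, although their ranges over the libraries overlapped. CCT2 and CCT4 overlapped, while CCT5 stood below every other subunit in each of the 3 libraries. The highest gene stood 5.85, 5.47 and 7.44 times above the lowest in the 3 no Abf1 libraries. The corresponding ratios were 2.78 and 2.23 in EM shuffle, 1.94 and 2.12 in NCS-506, and 9.2 and 2.44 in LS-15, and in all of these libraries CCT5 was lowest and CCT6 highest. The summed level of the 8 genes was 1990 ± 125 CPM (SD, n = 2) with wild-type Abf1, 1270 ± 15.1 (n = 3) without Abf1, 1760 ± 337 (n = 2) in EM shuffle, 1250 ± 96.1 (n = 2) in LS-15 and 1430 ± 126 (n = 2) in NCS-506.

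**Figure D3:**
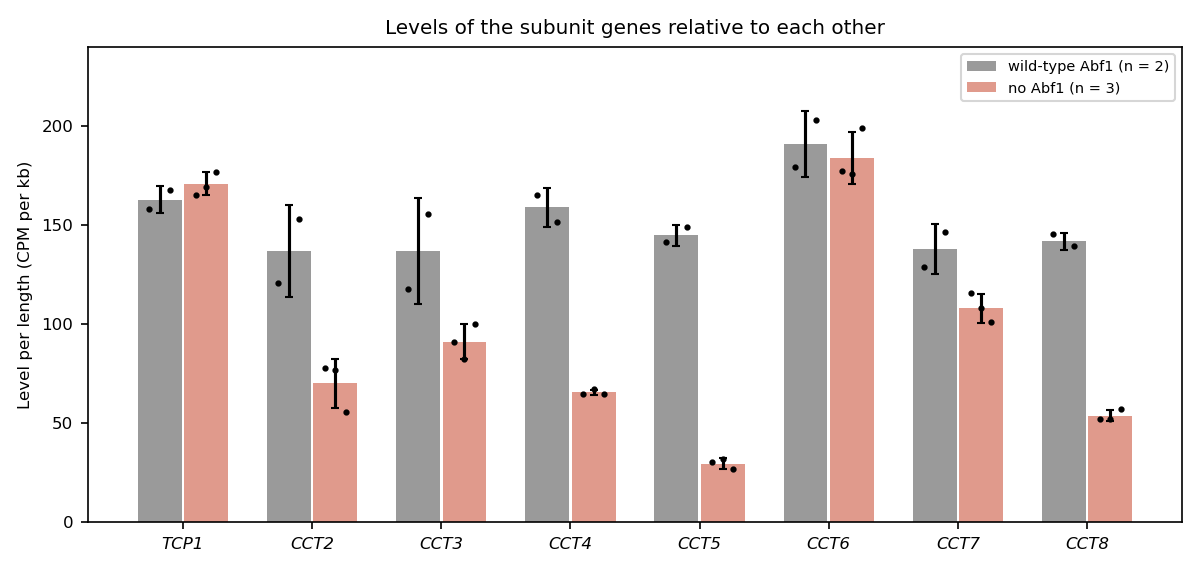
Level of each subunit gene in CPM per kb of coding sequence (linear axis from 0) with wild-type Abf1 and with no Abf1; bars are group means, error bars are SD and dots are libraries. With wild-type Abf1 the means lie between 137 and 191 CPM per kb, and without Abf1 they spread from 29.7 (CCT5) to 184 (CCT6).

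The variants were each compared with wild-type Abf1, and these comparisons share the 2 wild-type libraries with each other and with the comparison above. In EM shuffle 0 of the 8 genes were called by edgeR, where 2.24% of features were called in either direction. All 8 log2 fold changes lay below 0, from −0.91 to −0.01, with a median of −0.10 beside 0.01 over all features, but with scaling by library size alone the median of the 8 was 0.07 beside 0.19 over all features. CCT5, the only gene with an unadjusted p under 0.05 here (1 of 8), had 99.6 and 163 CPM in EM shuffle, both below the wild-type libraries, and a log2 fold change of −0.91 ± 0.329 (edgeR adjusted p = 0.165). Leaving out LS-15 replicate 2, which enters through the shared estimate of the spread, called CCT5, a count of 1. DESeq2 called 0, beside 194 of 5456 features. Limma on log2(TPM + 1) called 5 and on log2(TPM + 0.1) called 2, all of them higher in EM shuffle, on a scale on which the median of all features moved to 0.60 and 0.97. On these scales 3213 and 2703 of all 5456 features were called, 99.4% of them higher in both.

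In LS-15, 5 of the 8 genes were called lower than in wild-type Abf1, where 6.76% of features were called lower. The called genes were CCT5 (log2 fold change −1.74 ± 0.35, edgeR adjusted p = 0.0171), CCT8 (−0.98 ± 0.211, 0.0204), CCT4 (−0.89 ± 0.243, 0.0385), CCT2 (−0.87 ± 0.233, 0.036) and CCT3 (−0.81 ± 0.181, 0.0228). The remaining log2 fold changes were −0.51 for CCT7, −0.22 for TCP1 and −0.15 for CCT6. In 7 of the 8 genes both LS-15 libraries lay below both wild-type libraries on the TMM scale, which held for 27.5% of features.

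The LS-15 libraries differed from each other at the genes that had fallen most without Abf1. CCT5 had 36 CPM in replicate 1, from 32 counts (exact Poisson 95% interval 21.9 to 45.2 counts, counting error only), and 104 CPM in replicate 2, so that replicate 1 lay below the no Abf1 libraries and replicate 2 above them. Because the interval is in counts and not CPM, it does not set replicate 1 apart from the no Abf1 libraries. CCT4 had 96.7 and 171 CPM, CCT8 94.5 and 149 CPM, and CCT2 103 and 132 CPM in replicates 1 and 2. CCT3 had 127 and 124 CPM and TCP1 234 and 236 CPM, nearly equal in both. CCT6 and CCT7 were higher in replicate 1, with 322 against 247 CPM and 166 against 154 CPM. Replicate 1 was also the library with the fewest counts, and the part of depth in this split was not tested.

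Calls in LS-15 rested on few libraries. The count of 5 fell to 0 without LS-15 replicate 1 or without wild-type Abf1 replicate 2, and to 3 without wild-type Abf1 replicate 1, without any single no Abf1 library or without any single NCS-506 library. It was 0 when only the LS-15 and wild-type libraries were fitted, where 1 of 5327 features was called at all. By limma on TPM it was also 0, where 3 of 5456 features were called on log2(TPM + 1) and 4 on log2(TPM + 0.1). It was 2 with scaling by library size alone, beside 505 features called, and 5 by DESeq2, beside 642.

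In NCS-506, 0 of the 8 genes were called by edgeR against wild-type Abf1, where 0.587% of features were called in either direction. In all 8 genes both NCS-506 libraries lay below both wild-type libraries on the TMM scale, which held for 25.1% of features. The TMM scaling factor was lowest in wild-type Abf1 replicate 1 (0.838) and was 1.09 and 1.1 in NCS-506. As a share of total counts, without TMM, the 8 genes together made up 0.159% and 0.219% in wild-type Abf1 replicates 1 and 2. In NCS-506 they made up 0.147% and 0.167%, so on that scale the groups overlapped. Overlap of single genes was not examined with scaling by library size alone. The log2 fold changes ranged from −0.99 (CCT5) to −0.30 (TCP1), with a median of −0.43 beside 0.01 over all features. With scaling by library size alone these medians were −0.22 and 0.22, and on log2(TPM + 1) they were 0.47 and 0.56. At an unadjusted p under 0.05 there were 4 genes, and all features at that threshold were not counted for comparison. DESeq2 called 0 of the 8, beside 192 of 5456 features. Limma also called 0, beside 2914 features on log2(TPM + 1) and 2473 on log2(TPM + 0.1), of which 99.6% and 99.5% were higher. CCT5 had 116 and 131 CPM and CCT8 161 and 161 CPM in NCS-506, between the no Abf1 and the wild-type libraries for both genes.

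**Figure D4:**
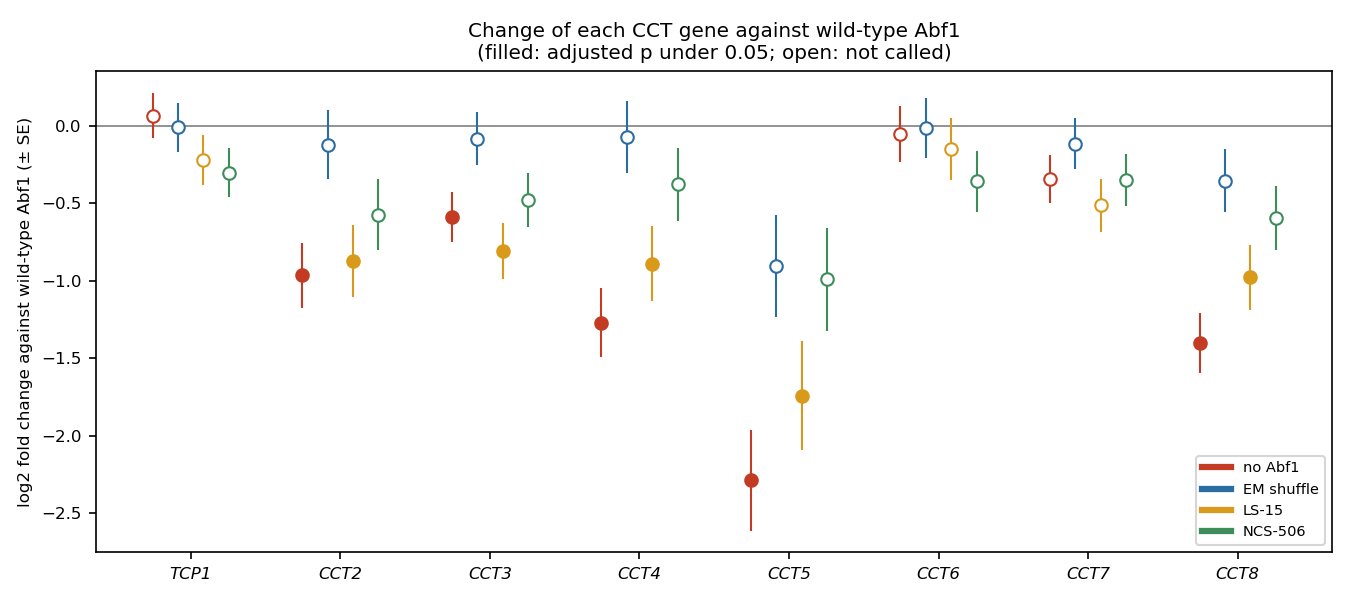
Log2 fold change (± SE) of each CCT gene against wild-type Abf1 for no Abf1, EM shuffle, LS-15 and NCS-506; filled points have an edgeR adjusted p under 0.05 and open points do not. CCT5 is the lowest gene for every construct, from −2.29 without Abf1 to −0.91 in EM shuffle, and no point is filled for EM shuffle or NCS-506.

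Against no Abf1, the variants were tested for a difference from the empty plasmid, and these comparisons share the 3 no Abf1 libraries. In EM shuffle 5 of the 8 genes were called higher than in no Abf1, where 12.9% of features were called higher. CCT5 was 2.6-fold higher (log2 fold change 1.38 ± 0.327, edgeR adjusted p = 0.0135), CCT4 2.3-fold (1.20 ± 0.22, 0.00533), CCT8 2.07-fold (1.05 ± 0.192, 0.00533), CCT2 1.79-fold (0.84 ± 0.209, 0.0156) and CCT3 1.42-fold (0.50 ± 0.16, 0.0405). The EM shuffle libraries had 202 and 278 CPM of CCT4, 163 and 218 CPM of CCT8, 163 and 238 CPM of CCT2, and 196 and 219 CPM of CCT3, all above the highest no Abf1 library of the same gene. In 5 of the 8 genes both EM shuffle libraries lay above every no Abf1 library, which held for 27.1% of features. CCT7, CCT6 and TCP1 had log2 fold changes of 0.23, 0.04 and −0.07 and were not called. The count of 5 fell to 2 (CCT4 and CCT8) without no Abf1 replicate 3, beside 506 of 5451 features called in either direction. Without EM shuffle replicate 2 fewer of the 8 and of all features were called, and the median log2 fold change of the 8 was 0.48.

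No subunit gene was called between LS-15 and no Abf1. By edgeR 0 of the 8 genes passed, and 0% of features (0 of 5456) in either direction. At an unadjusted p under 0.05 there were 0 genes, and DESeq2 and limma on TPM also called 0. The log2 fold changes ranged from −0.29 (TCP1) to 0.54 (CCT5), with standard errors of 0.148 and 0.349, and the LS-15 replicates stood on either side of the no Abf1 range at CCT5.

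In NCS-506 1 of the 8 genes, CCT8, was called higher than in no Abf1, where 2.4% of features were called higher. CCT8 was 1.75-fold higher (log2 fold change 0.81 ± 0.194, edgeR adjusted p = 0.0454). CCT5 had a larger log2 fold change of 1.30 ± 0.328 and CCT4 one of 0.89 ± 0.221, and both just missed the threshold (edgeR adjusted p = 0.0543 and 0.0513), although both NCS-506 libraries lay above every no Abf1 library for each. TCP1 had a log2 fold change of −0.37 ± 0.146 (edgeR adjusted p = 0.197). The count was 0 without any single no Abf1 library, where 0 of all features were called. It also moved when an NCS-506, EM shuffle or LS-15 library was left out. Over all leave-outs the log2 fold change of CCT8 ranged from 0.785 to 0.853. DESeq2 called 3, beside 261 of 5456 features in either direction.

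EM shuffle, which does not support growth, was last compared with the average of the variants that do, LS-15 and NCS-506. By edgeR 0 of the 8 genes were called, where 2.09% of features were called in either direction. All 8 log2 fold changes were above 0, from 0.24 (CCT6) to 0.60 (CCT2), with a median of 0.45 beside 0.02 over all features. At an unadjusted p under 0.05 there were 5 genes, and all features at that threshold were not counted for comparison. CCT3 came nearest the threshold for a call (log2 fold change 0.56 ± 0.149, edgeR adjusted p = 0.0632). DESeq2 called 0 of the 8, beside 281 of 5456 features. Limma also called 0, beside 69 features on log2(TPM + 1) and 0 on log2(TPM + 0.1). More of the 8 and more of all features were called without EM shuffle replicate 1 or without LS-15 replicate 2. The median log2 fold change of the 8 was then 0.63 and 0.57. It was 0.19 without EM shuffle replicate 2 and 0.34 without LS-15 replicate 1.

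Over the 5 groups the mean levels of CCT2, CCT4, CCT5 and CCT8 had 1 order, with wild-type Abf1 highest, then EM shuffle, NCS-506, LS-15 and no Abf1. CCT3 differed only in that LS-15 was below no Abf1. In CCT5 and CCT8 the wild-type libraries lay above those of EM shuffle on the TMM scale, whereas in CCT2, CCT3 and CCT4 they overlapped. Both EM shuffle libraries lay below both wild-type libraries in 1207 of 5456 features. LS-15 overlapped no Abf1 in CCT2, CCT4, CCT5 and CCT8. TCP1 and CCT6 had NCS-506 lowest, at 222 ± 10.5 and 245 ± 36.4 CPM (SD, n = 2).

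The genes beside the subunit genes were examined because some share an upstream region with them. CCT4 and YDL144C are transcribed away from each other across 263 bp that hold the CCT4 match. While CCT4 fell, YDL144C had 67.1 and 56.5 CPM with wild-type Abf1 and 103, 98.3 and 95.6 CPM without Abf1, and was called higher (log2 fold change 0.68 ± 0.174, edgeR adjusted p = 0.0162). CCT2 and SSL2, a helicase of the transcription factor TFIIH, diverge across 260 bp. SSL2 had 116 and 111 CPM with wild-type Abf1 and 157, 177 and 137 CPM without Abf1, higher in every library but not called (log2 fold change 0.47 ± 0.164, edgeR adjusted p = 0.0561).

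The upstream neighbours on the same strand did not move with their subunit gene in a fixed way. RPA12, a subunit of RNA polymerase I that ends 341 bp before CCT5, was called lower (log2 fold change −1.14 ± 0.38, edgeR adjusted p = 0.048) from only 9 to 12 counts per no Abf1 library. GCD6, a subunit of the translation factor eIF2B that ends 366 bp before TCP1, was called lower (−0.76 ± 0.209, edgeR adjusted p = 0.0221) although TCP1 was not. TPH3 beside CCT3 had a log2 fold change of 0.78 ± 0.308 and MDV1 beside CCT7 one of 0.16 ± 0.208, and neither was called. SND1, which diverges from CCT6 across 928 bp, had one of 0.22 ± 0.163 and was not called. YJL007C, upstream of CCT8, was not analysed here.

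The partners of CCT were followed as 5 lists, 30 genes in all. Prefoldin, which hands unfolded actin and tubulin to CCT, had 1 of its 6 subunit genes called lower without Abf1, where 13.7% of all features were called lower, and 5 not called, and the same median log2 fold change as all features, 0.015. The called gene was GIM3, at 37.8 and 37.7 CPM with wild-type Abf1 and 3.01, 6.56 and 3.08 CPM without Abf1 (3 to 7 counts per library; log2 fold change −3.12 ± 0.613, edgeR adjusted p = 0.00468). GIM3 has an Abf1 consensus match within 400 bp, and the other 5 prefoldin genes have none. Like CCT5, GIM3 split the LS-15 libraries, with 3.37 CPM in replicate 1 and 26.2 CPM in replicate 2. In EM shuffle it had 23.5 and 26.8 CPM and was called higher than in no Abf1 (log2 fold change 2.53 ± 0.622, edgeR adjusted p = 0.0152).

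Of 7 client genes (ACT1, TUB1, TUB2, TUB3, CDC20, CDH1 and CDC55), 1 was called higher without Abf1, 0 lower and 6 not called, beside 9.73% of all features called higher and 13.7% lower; the median log2 fold change was −0.21. ACT1, encoding actin, had 2330 and 2330 CPM with wild-type Abf1 and 2430, 2370 and 2190 CPM without Abf1. TUB1, an alpha-tubulin gene whose reads can be shared with its close copy TUB3, had a log2 fold change of −0.21 ± 0.159, and TUB2, the beta-tubulin gene, one of −0.29 ± 0.175. The called gene was CDC55, a regulatory subunit of protein phosphatase 2A with a beta-propeller fold, at 95.7 and 98.4 CPM with wild-type Abf1 and 200, 205 and 196 CPM without Abf1 (log2 fold change 1.04 ± 0.142, edgeR adjusted p = 0.00102). CDC55 was also called higher in LS-15 than in wild-type Abf1 (0.90 ± 0.153, edgeR adjusted p = 0.0131).

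The tubulin folding cofactors CIN1, CIN2, CIN4, PAC2 and ALF1, which act after CCT, had 0 of 5 called without Abf1 (median log2 fold change 0.24). The mitochondrial chaperonin genes HSP60 and HSP10, the counterpart of CCT in another compartment, had 0 of 2 called (median 0.09). Beside these counts, 13.7% of all features were called lower and 9.73% higher. Of these genes CIN2, HSP60 and HSP10 have an Abf1 consensus match within 400 bp.

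Among 10 genes of other cytosolic chaperones, 4 were called higher without Abf1, where 9.73% of all features were called higher, 0 were called lower and 6 not called, and the median log2 fold change was 0.32. HSP82, an Hsp90 gene, rose by 1.38 ± 0.227 (edgeR adjusted p = 0.00199), SSA1, an Hsp70 gene, by 1.02 ± 0.224 (0.00797), HSP104, the disaggregase, by 0.99 ± 0.225 (0.00935) and SIS1, a J-domain partner of Hsp70, by 0.81 ± 0.166 (0.0057). HSP82 and SSA1 have the close copies HSC82 and SSA2, between which the authors' counting could split reads, and HSC82 and SSA2 had log2 fold changes of 0.45 ± 0.182 and 0.11 ± 0.194, not called. HSP82, SSA1 and HSP104 were called lower in EM shuffle than in no Abf1 (log2 fold changes −0.91 ± 0.222, −0.91 ± 0.223 and −0.91 ± 0.224, edgeR adjusted p = 0.015, 0.0148 and 0.0153), and STI1, which bridges Hsp70 and Hsp90, and YDJ1, another J-domain protein, were called higher there (0.91 ± 0.17 and 0.57 ± 0.155, edgeR adjusted p = 0.00557 and 0.0235). HSP82 was also called higher in LS-15 than in wild-type Abf1 (0.87 ± 0.24, edgeR adjusted p = 0.0396), and STI1 was called higher in NCS-506 than in no Abf1 (0.81 ± 0.17, edgeR adjusted p = 0.0331).

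**Figure D5:**
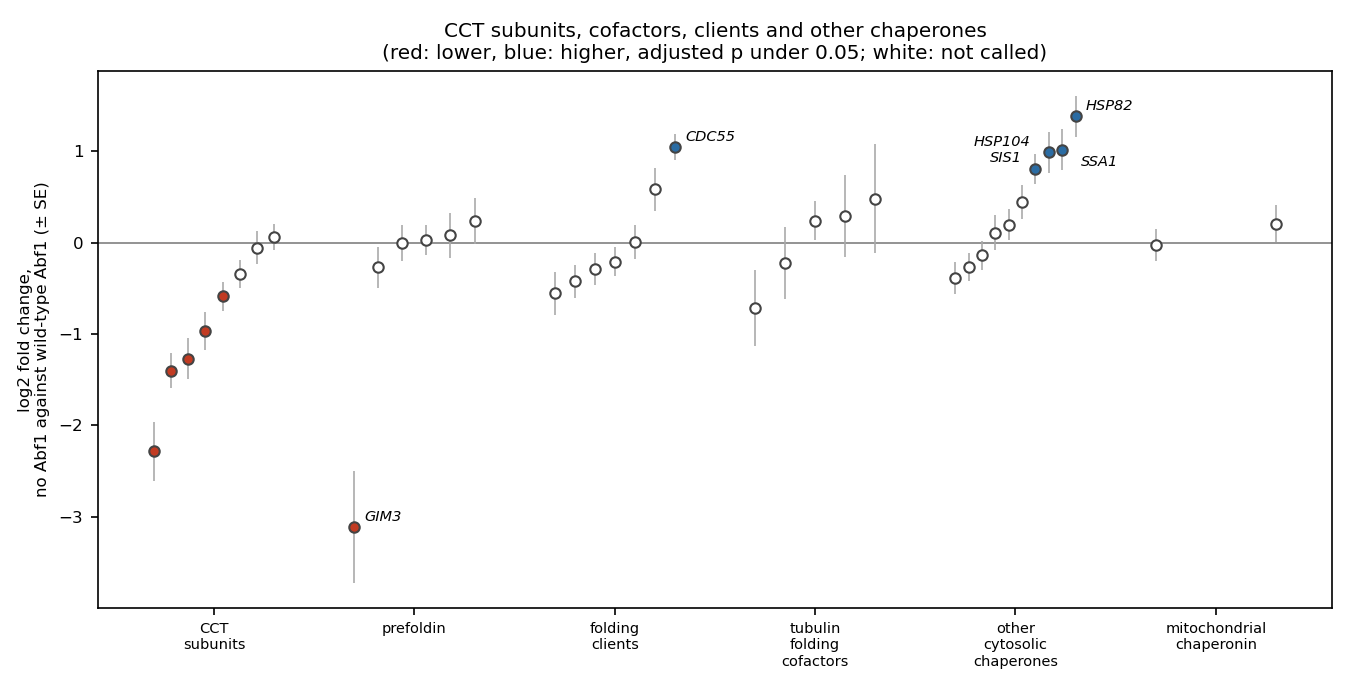
Log2 fold change (± SE) in no Abf1 against wild-type Abf1 for the 8 CCT genes and the 30 genes of the 5 lists, each point a gene, sorted within its list; red is called lower, blue called higher and white not called. GIM3 at −3.12 is the single called prefoldin gene, and the 4 called genes of the other cytosolic chaperones lie between 0.81 and 1.38.

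Across the 11 libraries the 28 pairs of subunit genes had Pearson correlations of log2 CPM from −0.035 to 0.974, with a median of 0.664. The libraries share groups, depth and scaling, so these values describe the set and are not tested. Genes whose log2 CPM closely tracked the mean of the 8, among 3809 genes averaging at least 50 counts, included TIF3, encoding eIF4B (r = 0.977), TIF2, encoding eIF4A with a close copy in TIF1 (0.977), ILV6, a regulatory subunit of branched-chain amino acid synthesis (0.977), and THS1, the threonyl-tRNA synthetase (0.976). Their log2 fold changes without Abf1 were −0.94 (TIF3), −0.96 (TIF2), −0.76 (ILV6) and −0.86 (THS1), all called lower by edgeR, and TIF3, TIF2 and THS1 have an Abf1 consensus match within 400 bp.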

How the data were processed

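Total RNA was sequenced from 11 libraries with a directional kit. The authors used STAR for alignment to the sacCer3 genome (R64-1-1) and RSEM for gene quantification; their versions, annotation and strand setting are not given in the sources used here. The deposited counts are whole numbers per feature, and the deposited TPM values sum, per library, to 8.18 to 14.1% of the total that TPM is defined to have, so they do not compare libraries on 1 scale.

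Counts were filtered (filterByExpr), scaled by TMM and fitted with edgeR 4.0.16 (R 4.3.3, limma 3.58.1) over all 11 libraries with 1 term per group and no covariate. Log2 CPM used a prior count of 2. Systematic names were matched to RefSeq (6011 of 6834 matched), and its R64 chromosomes gave the upstream matches, counted from the start codon. URA3 was not analysed here. The genes named are all 8 members, called members of each list, upstream neighbours, and the 5 genes most correlated with the members' mean; 1 of those 5 and 1 list are not reported here. The members and lists were chosen with earlier results of these data known. Alternatives were DESeq2 1.42.0, other scalings, filters and sample sets, limma on log2(TPM + 1) and log2(TPM + 0.1), a block on replicate number and leaving out each library.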

Additional observations from a re-analysis of the deposited data

How the results depend on the processing

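Of 551 values recomputed under an alternative, 432 kept their direction and side of the threshold or stayed within 1.5 times the main count. CCT5 and CCT8 were called lower without Abf1 than with wild-type Abf1 under every alternative run. Limma on TPM called 2 genes there, 0 in LS-15 against wild-type Abf1, 5 (log2(TPM + 1)) and 2 (log2(TPM + 0.1)) in EM shuffle against wild-type Abf1, and 8 each in EM shuffle and NCS-506 against no Abf1, where the median of all features was 0.66 and 0.65 or 1.07 and 1.03. In the comparisons of EM shuffle and NCS-506 with no Abf1, limma on log2(TPM + 1) called 4067 and 4319 of 5456 features. Of those calls 98.3% and 99.4% were higher. In EM shuffle against wild-type Abf1 limma on log2(TPM + 1) called 3213 features, 99.4% of them higher. On the TPM scale the no Abf1 changes were −0.79 and −1.04 for CCT2, −0.52 and −0.67 for CCT3, −0.92 and −1.25 for CCT4, none called, and TCP1 turned to −0.045 and −0.04. TCP1 also turned to −0.039 with TMM on genes without an Abf1 match, CCT3 was not called by library size alone (−0.61), and CCT7 was called (−0.36) when only the groups compared were fitted. For LS-15 against wild-type Abf1 the count was 2 by library size alone and 0 with only the groups compared. Against wild-type Abf1, fits of only the groups compared called 1 of 5327 features in LS-15 and 1 of 5374 in EM shuffle. They called 2 of 5343 in NCS-506 and 1729 of 5289 in no Abf1. For NCS-506 against no Abf1 the count of CCT genes was 3 by DESeq2, by library size alone and with at least 1 count in any library, 2 with TMM on genes without a match and 4 with only the groups compared (3 higher, and TCP1 lower). For EM shuffle against the averaged viable variants it was 1 with at least 1 count in any library. The causes were not tested. Scaling by library size alone moved the median of all features to between 0.19 and 0.23 in the comparisons of EM shuffle and NCS-506 with wild-type and no Abf1, and raised the share of higher calls from 30.3% to 65.5% (EM shuffle against wild-type) and from 53.8% to 74% (EM shuffle against no Abf1).

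Leaving out 1 library at a time gave 3 to 5 called genes for no Abf1 against wild-type Abf1, 0 to 1 for EM shuffle, 0 to 6 for LS-15, and, against no Abf1, 2 to 5 for EM shuffle and 0 to 3 for NCS-506. It gave 0 to 4 for EM shuffle against the averaged viable variants (LS-15 with NCS-506). The no Abf1 changes ranged from −1.13 to −0.78 for CCT2, −0.78 to −0.37 for CCT3 and −0.143 to 0.034 for CCT6. Where a group kept 1 library, that library was assumed to vary like the others. The number of all features called also changed with the library left out.

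Deviations of same-numbered libraries correlated at 0.184 to 0.373 between the variants and at −0.129 to −0.082 between no Abf1 and each variant, and the labels tie the replicate numbers to nothing shared, so the libraries were not treated as paired. With a replicate block over the 9 numbered libraries, 4 genes were called in EM shuffle against no Abf1 and 0 in NCS-506 against no Abf1, where the log2 fold change of CCT8 was 0.86 (edgeR adjusted p = 0.089). Depth limits the lowest values, such as 32 counts of CCT5 in LS-15 replicate 1 and 3 counts of GIM3.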
